A study of Mus musculus with 12 samples.

Results

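The transcripts described here are those of the semaphorins, a family of axon guidance ligands, and of their plexin and neuropilin receptors, in primary mouse entorhinal cortex (EC) neurons whose Dek level was lowered or raised. Dek encodes a chromatin-binding protein. The members are all gene symbols beginning with Sema3 to Sema7, Plxna, Plxnb, Plxnc or Plxnd, plus Nrp1 and Nrp2. The rule found 32 of the 24100 genes in the count table, namely 20 semaphorins, 9 plexins, 2 neuropilins and the antisense RNA Plxna4os1, which is neither ligand nor receptor.

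Semaphorins are secreted (class 3), membrane-spanning (classes 4 to 6) or lipid-anchored (class 7) proteins that steer growing axons and later shape dendrites and synapses. Plexins are their signalling receptors, with a cytoplasmic domain that switches off Rap and R-Ras GTPases. Most class 3 semaphorins cannot bind plexin-A on their own and dock on a neuropilin, whereas Sema3e binds plexin-D1 directly. Class 4 ligands mainly use plexin-B, class 5 and 6 ligands mainly plexin-A, and Sema7a uses plexin-C1 and beta-1 integrin.

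EC neurons from C57Bl/6J embryos at embryonic day 17 were transduced after 7 days in vitro with an AAV1 vector carrying mCherry, and RNA was collected 4 days later. There were 4 groups of 3 wells each. The Dek shRNA group received a U6-driven hairpin against Dek and its control a U6-driven scrambled hairpin. The Dek cDNA group received mouse Dek ahead of IRES-mCherry under the neuronal hSyn1 promoter and its control the hSyn1-mCherry-WPRE vector without Dek, called empty vector below. No source used here says that the wells of a group came from separate litters, so the p-values below measure the spread between wells, which may be technical. Because RNA came from whole wells, fewer cells of a type and less RNA per cell cannot be told apart.

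Each library held 15679479 to 18933293 estimated counts. Dek was at 7.98, 6.64 and 8.61 CPM (counts divided by library size, scaled by the trimmed mean of M-values, TMM, over the 12 libraries) in Dek shRNA wells, against 35.2, 36.6 and 36.3 CPM in scrambled wells, and at 156, 129 and 143 CPM in Dek cDNA wells, against 36.0, 38.8 and 41.1 CPM in empty vector wells. The 8 neuronal markers summed to 5651 to 6201 CPM in Dek shRNA wells, against 6714 to 6904 CPM in scrambled wells, without overlap, and to 6853 to 7122 CPM in Dek cDNA wells, against 6656 to 6976 CPM in empty vector wells. Against scrambled 5 of the 8 fell and 1 rose. The neurofilament gene Nefl was at 30 to 48.6 CPM in Dek shRNA wells and 163 to 211 CPM in scrambled wells, and Nefm at 11.3 to 13.9 and 56.5 to 79.4 CPM. Rbfox3 lay higher in Dek shRNA wells, at 79.9 to 99.7 against 57.4 to 77.1 CPM, and Snap25 and Syt1 overlapped. The part of the drop in the neuronal sum in the results below was not tested. The 8 endothelial markers, which matter here because Plxnd1 and Nrp1 are prominent vascular genes, summed to 1.22 to 2.29 CPM in Dek shRNA wells and 1.6 to 2.68 CPM in scrambled wells, with Cdh5 at 0 in both groups.

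Of the 32 members, 29 passed the filter on low counts in every comparison (19 ligands and 10 receptors). Sema3g, a class 3 ligand, had 0 to 8 counts per library, Plxnb3, a plexin-B, 0 to 5, and Plxna4os1 0 to 2, so changes in these genes could not be detected at this depth. For levels that can be set beside each other between genes, CPM was divided by the length in kb of the longest coding transcript (RPKM). In empty vector wells Plxnd1 was the highest receptor at 31.1 ± 1.17 RPKM (SD, n = 3), followed by Plxna1 at 24.6 ± 2.48 RPKM. Nrp1 at 17.9 ± 0.286, Plxna2 at 17.7 ± 1.15 and Plxna3 at 16.7 ± 1.00 RPKM came next, and their library ranges overlapped from one to the next. Among the ligands of the same wells Sema7a led at 35.6 ± 2.30 RPKM, ahead of Sema6b at 22.0 ± 0.478, Sema4g at 19.3 ± 0.873 and Sema6a at 15.9 ± 0.143 RPKM. The order changed in both hairpin groups. In Dek shRNA wells Plxnd1 reached 41.3 ± 2.60 RPKM and Nrp1 was the second receptor at 24.9 ± 1.91 RPKM, while in scrambled wells Plxnd1 was the eighth receptor at 9.86 ± 1.03 RPKM. The leading ligand was Sema6b in Dek shRNA wells (29.3 ± 2.78 RPKM) and Sema4g in scrambled wells (22.7 ± 0.921 RPKM), where Sema4g and Sema6b overlapped.

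**Figure D1:**
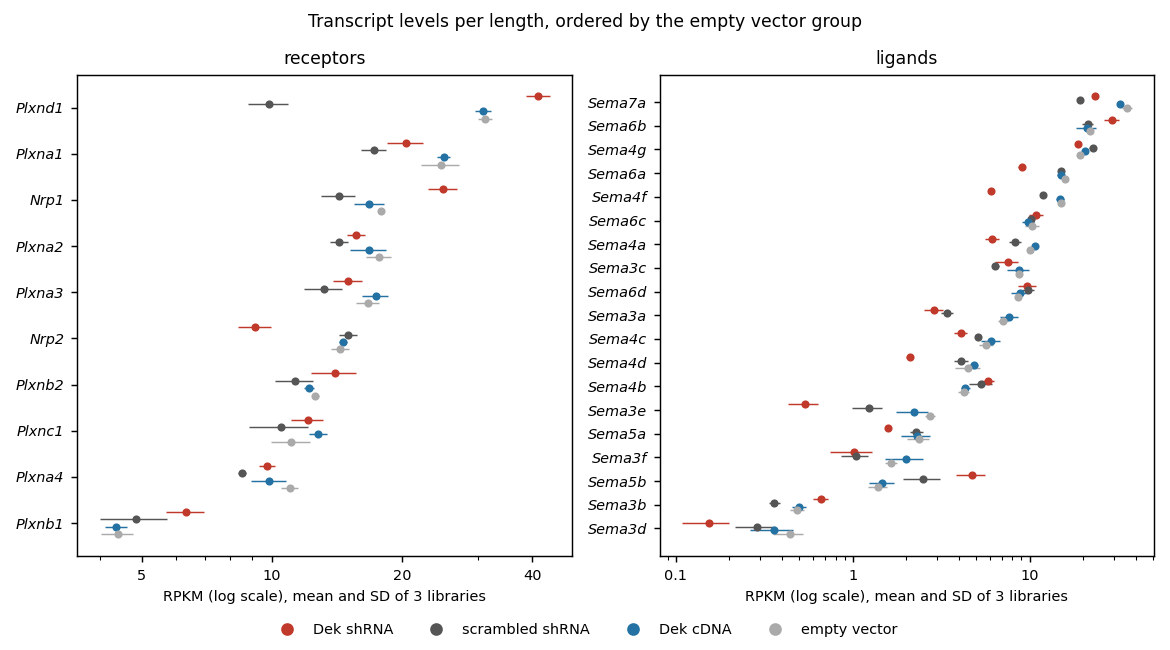
Transcript level per length (RPKM, log scale) of the 10 receptors and 19 ligands tested, ordered by the empty vector group; points are means and bars SD of 3 libraries in each of the 4 groups. Plxnd1 lies at 41.3 RPKM in Dek shRNA wells, 9.86 RPKM in scrambled wells and 31.1 RPKM in empty vector wells.

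Dek silencing was first set against the scrambled hairpin, the study's control for it. At an adjusted p below 0.05 (edgeR quasi-likelihood test, Benjamini-Hochberg over 14232 genes), 54.7% of all genes were called, 26.2% higher and 28.5% lower, so a call by itself was common. Of the 29 members tested, 10 rose and 10 fell, or 69.0%. Receptor calls were mostly upward and ligand calls mostly downward, a contrast that was not itself tested. Of the 10 receptors 6 rose and 1 fell, with a median log2FC of 0.21, and of the 19 ligands 4 rose and 9 fell, with a median of −0.26, beside a median of −0.0011 over all genes. Scaling by total counts alone moved that all-gene median to 0.1 and turned the calls over all genes into 4793 higher and 3210 lower, against 3730 and 4060 with the scaling used, and the members into 13 higher and 10 lower.

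The scrambled and empty vector controls themselves differed. Between them 43.1% of genes were called, 21.3% higher and 21.8% lower in scrambled wells, and of the members 4 were higher (Sema4b, Sema4g, Sema5b and Sema6d) and 13 lower. Sema4b and Sema6d lost their call without scrambled replicate 2 or 3 or empty vector replicate 2 or 3, which left 2 members higher. All 6 receptors called there were lower, with a receptor median of −0.32 and a ligand median of −0.15, against 0.01 over all genes. With counts corrected for GC content and length, Plxna2 and Plxna4 lost that call. Nrp2 (0.23, adjusted p = 0.0026) and Plxnb1 (0.32, adjusted p = 0.037) were then called higher in scrambled wells. Dek shRNA wells were therefore also set against empty vector wells, where 67.4% of all genes were called (34.0% higher, 33.5% lower). In that comparison 6 members rose and 16 fell. The ligands again moved mostly down, 3 higher and 12 lower with a median of −0.59, while the receptors were at 3 higher and 4 lower with a median of −0.02. These comparisons share wells and are not independent, and the 2 controls also differ in promoter and cassette.

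**Figure D2:**
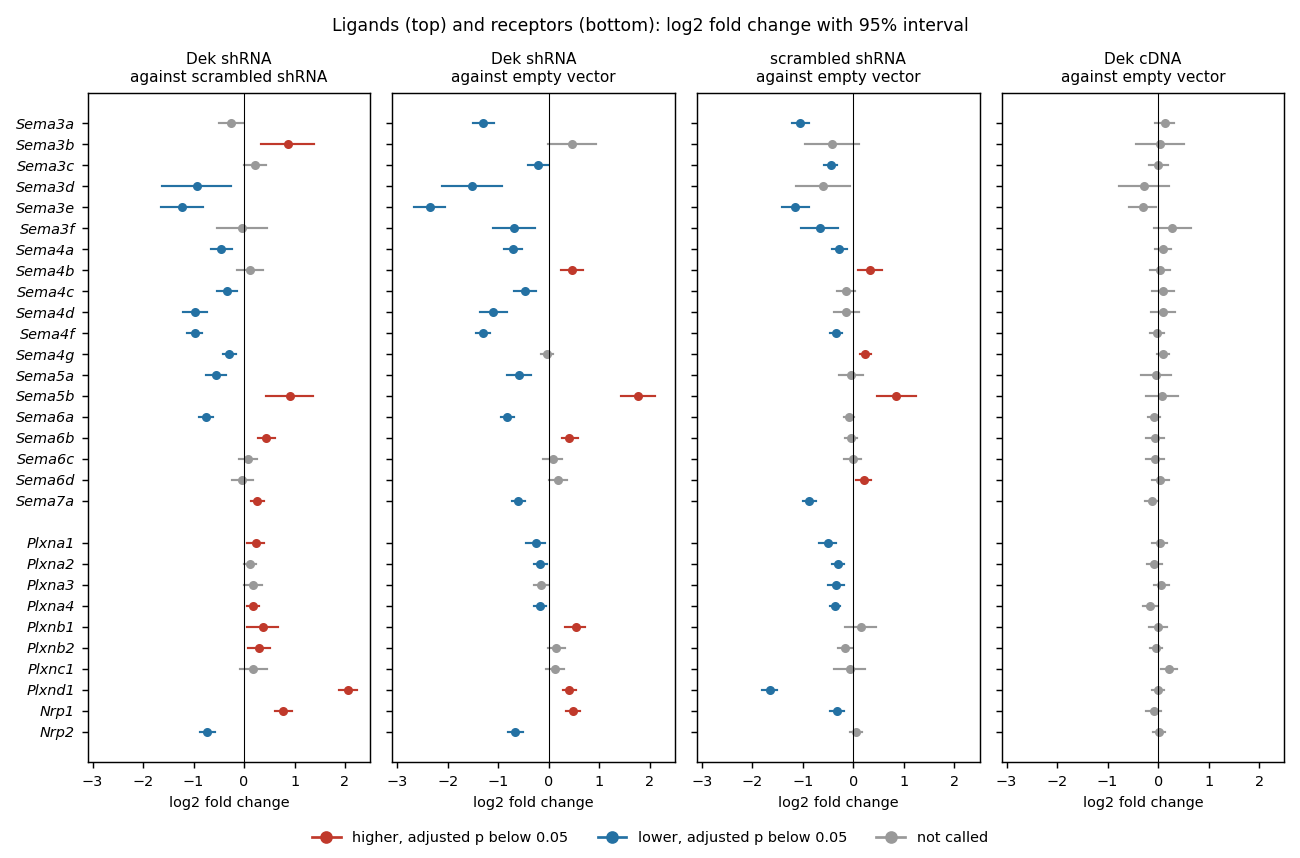
The log2FC of 19 ligands (top) and 10 receptors (bottom) in 4 comparisons, with 95% intervals from edgeR; red and blue mark an adjusted p below 0.05. The receptor points lie to the right in the first panel except Nrp2 at −0.73, and no point is coloured in the Dek cDNA panel.

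Plxnd1, the receptor for Sema3e, had the largest change of any member against scrambled. It was at 265, 297 and 294 CPM in Dek shRNA wells, against 59.8, 71.6 and 72.7 CPM in scrambled wells, while Dek cDNA wells had 205, 222 and 210.5 CPM and empty vector wells 224, 213 and 208 CPM. The scrambled wells were low and every other well was at 205 CPM or more, with the Dek shRNA wells highest and no overlap with either control. The log2FC was 2.05 (SE 0.082, edgeR adjusted p = 1e-08) against scrambled and 0.41 (SE 0.061, adjusted p = 5.8e-05) against empty vector, and scrambled wells were themselves lower than empty vector wells by a log2FC of −1.66 (SE 0.068, adjusted p = 3.2e-08). The direction in which Dek shRNA moved Plxnd1 was thus the same against both controls, but its size differed with the control.

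The 3′ UTRs of the members were searched on the sense strand for bases complementary to the seed (guide bases 2 to 8) of the Dek hairpin, using the hairpin sequence given in the study's methods. A guide that starts at base 1 or base 4 as listed gives AGGATCT or AAGAGGA, and joined these are AAGAGGATCT. The letters AAGAGGA were picked in an earlier look at all heptamers in these data, so how genes that hold them moved is only a description. AAGAGGATCT, part of the intended target in the Dek transcript, is in 42 of 20062 annotated 3′ UTRs (0.209%) and in no member. The following stretches (mm10, from GENCODE transcripts) show these matches in capitals, for Dek as the intended target and for 4 members with AAGAGGA that are described below.
Dek transcript, chr13:47099368-47099397, minus strand: cgaactcgtgAAGAGGATCTtgaacttctt
Nrp2 3′ UTR, chr1:62796996-62797022, plus strand: aaaaaagaagAAGAGGAataaaaagtt
Plxna4 3′ UTR, chr6:32149668-32149694, minus strand: ggagagagagAAGAGGAaaaagaatat
Sema3e 3′ UTR, chr5:14254856-14254882, plus strand: caggcagctaAAGAGGAaatgatcttg
Sema4d 3′ UTR, chr13:51702078-51702104, minus strand: tattcatgagAAGAGGAacattttcta
A match of letters is not a site, and whether the hairpin acted on these transcripts other than Dek was not tested.

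Nrp1, the neuropilin that binds Sema3a and also VEGF-A, rose. It was at 97.6, 85.1 and 86.4 CPM in Dek shRNA wells, against 56.8, 48.9 and 48.8 CPM in scrambled wells and 63.3, 65.2 and 65.1 CPM in empty vector wells. Every Dek shRNA well lay above every control well. The log2FC was 0.78 (SE 0.077, adjusted p = 4.4e-06) against scrambled and 0.48 (SE 0.063, adjusted p = 2.3e-05) against empty vector. Scrambled wells were below empty vector wells at −0.32. The 5 pericyte markers, led by Rgs5, moved with Nrp1 and Plxnd1, at a summed 9.58 to 10.6 CPM in Dek shRNA wells and 3.02 to 3.39 CPM in scrambled wells with Kcnj8 at or near 0, and their part in the result was not tested.

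Nrp2, the neuropilin preferred by Sema3f, moved the other way. It was at 67.0, 61.6 and 56.0 CPM in Dek shRNA wells, against 95.2, 104 and 103 CPM in scrambled wells and 102, 93.2 and 95.8 CPM in empty vector wells. The Dek shRNA wells lay below all others, and the controls overlapped. The log2FC was −0.73 (SE 0.070, adjusted p = 4.1e-06) against scrambled and −0.66 (SE 0.070, adjusted p = 3.2e-06) against empty vector. With counts corrected for GC content and length these were −0.62 and −0.37, and scrambled wells were then above empty vector wells at 0.23 (adjusted p = 0.0026). Nrp1 and Nrp2 were thus at 89.7 ± 6.87 and 61.6 ± 5.50 CPM in Dek shRNA wells, and at 64.5 ± 1.03 and 97.1 ± 4.67 CPM in empty vector wells.

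The 4 plexin-A receptors, which signal for neuropilin-bound class 3 ligands and bind class 6 ligands directly, changed little and in a way that depended on the control. Plxna1 was at 172, 205 and 177 CPM in Dek shRNA wells, against 144, 159 and 164 CPM in scrambled wells and 247, 216 and 203 CPM in empty vector wells. Dek shRNA wells lay between the controls, overlapping the empty vector wells at 1 value. Its log2FC was 0.23 (adjusted p = 0.022) against scrambled and −0.26 (adjusted p = 0.015) against empty vector. The call against scrambled was lost without Dek shRNA replicate 2 (0.15, adjusted p = 0.10) or scrambled replicate 1 (0.17, adjusted p = 0.085).

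Plxna4, a receptor for Sema6a and Sema6b as well as Sema3a, was at 130.3, 127 and 119 CPM in Dek shRNA wells, against 109.6, 112 and 108 CPM in scrambled wells and 149, 140 and 136 CPM in empty vector wells. Its Dek shRNA wells also lay between the controls, without overlap, at 0.18 (adjusted p = 0.014) against scrambled and −0.17 (adjusted p = 0.017) against empty vector. The first of these was 0.16 (adjusted p = 0.068) without scrambled replicate 3. Plxna2 averaged 173 ± 8.27 CPM in Dek shRNA wells, 158 ± 7.43 in scrambled wells and 196 ± 12.7 CPM in empty vector wells, and Plxna3 104 ± 8.02, 91.4 ± 9.05 and 116 ± 6.96 CPM. Neither passed against scrambled (0.12, adjusted p = 0.11, and 0.17, adjusted p = 0.099), although both were called higher with the GC and length correction (0.31, adjusted p = 0.0001, and 0.24, adjusted p = 0.0072), Plxna2 also without Dek shRNA replicate 3 (0.15, adjusted p = 0.042) and Plxna3 without scrambled replicate 3 (0.23, adjusted p = 0.049). Against empty vector Plxna2 was called lower (−0.17, adjusted p = 0.024; −0.15 without Dek shRNA replicate 3 and −0.14 without empty vector replicate 1, neither called) and Plxna3 did not pass (−0.16, adjusted p = 0.061; −0.23, adjusted p = 0.012, without Dek shRNA replicate 2). All 4 plexin-A genes were lower in scrambled than in empty vector wells, at −0.51 for Plxna1, −0.37 for Plxna4, −0.34 for Plxna3 and −0.31 for Plxna2. Of these, Plxna4 was at −0.046 (adjusted p = 0.42) and Plxna2 at 0.015 (adjusted p = 0.81) with the GC and length correction. Plxna3 was at −0.21 (adjusted p = 0.052) with that correction and the replicate block. With counts corrected for GC content and length, Plxna2 and Plxna4 were higher in Dek shRNA wells than in empty vector wells (0.33, adjusted p = 2.5e-05, and 0.32, adjusted p = 3.3e-05) and Plxna1 was at 0.030, so no direction against empty vector is given for plexin-A. Plxna1 and Plxna4 share 970 and 110 exonic bases with the antisense genes Gm26811 and Plxna4os3, and whether counting used strand is not given in the sources used here.

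Plxnb1, the main Sema4d receptor, was at 48.3, 57.9 and 57.7 CPM in Dek shRNA wells, against 33.4, 46.8 and 45.9 CPM in scrambled wells and 40, 39.9 and 34.2 CPM in empty vector wells. It was above both controls in every Dek shRNA well. Its log2FC was 0.53 (SE 0.090, adjusted p = 0.0002) against empty vector and 0.37 (SE 0.14, adjusted p = 0.046) against scrambled, where scrambled replicate 1 was low. The call against scrambled was lost without Dek shRNA replicate 2 (0.32, adjusted p = 0.14), Dek shRNA replicate 3 (0.32, adjusted p = 0.15) or scrambled replicate 1 (0.22, adjusted p = 0.066). Plxnb1 shares 257 exonic bases with the antisense gene Gm7628.

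Plxnb2, which binds Sema4c and Sema4g, was at 79.4, 101 and 92.2 CPM in Dek shRNA wells, against 65.3, 74.7 and 79.6 CPM in scrambled wells and 82.8, 83.3 and 80.5 CPM in empty vector wells. Dek shRNA wells overlapped both controls. It rose against scrambled (0.30, SE 0.10, adjusted p = 0.029) but did not pass against empty vector (0.15, adjusted p = 0.12), where it was called with the GC and length correction (0.29, adjusted p = 0.00095) or without Dek shRNA replicate 1 (0.22, adjusted p = 0.0062). The call against scrambled was lost without Dek shRNA replicate 2 (0.21), Dek shRNA replicate 3 (0.29), scrambled replicate 1 (0.22) or scrambled replicate 2 (0.31), with adjusted p from 0.062 to 0.1. Plxnc1, the Sema7a receptor, averaged 88.0 ± 7.46 CPM in Dek shRNA wells, 76.9 ± 12.1 CPM in scrambled wells and 81.0 ± 8.48 CPM in empty vector wells, and did not pass against either control. With the GC and length correction it was called higher against both, at 0.33 (adjusted p = 0.023) against scrambled and 0.49 (adjusted p = 5.8e-05) against empty vector.

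**Figure D3:**
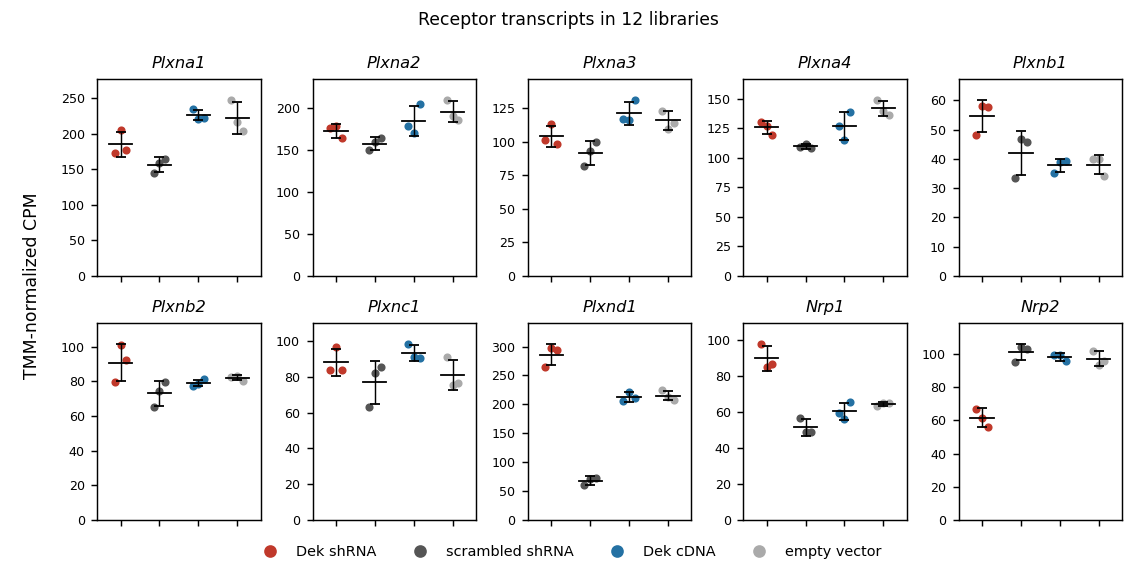
CPM of the 10 receptors tested in each of the 12 libraries (points), with mean and SD of 3 libraries per group. Plxnd1 is low in the 3 scrambled wells (59.8 to 72.7 CPM), and Nrp1 and Nrp2 lie on opposite sides of their controls in Dek shRNA wells.

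Sema3e, a ligand of Plxnd1, fell in Dek shRNA wells while Plxnd1 rose. Sema3e was at 4.39, 2.94 and 3.67 CPM in Dek shRNA wells, against 10.2, 7.98 and 7.10 CPM in scrambled wells and 17.7, 20 and 18.8 CPM in empty vector wells. The 3 groups did not overlap, with the scrambled wells in between. The log2FC was −1.22 (SE 0.19, adjusted p = 0.00018) against scrambled and −2.36 (SE 0.14, adjusted p = 1.5e-08) against empty vector, and −1.16 (SE 0.12, adjusted p = 1e-05) for scrambled against empty vector. Sema3e was the member with the lowest log2FC in both comparisons of Dek shRNA.

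Sema3a, the classical growth cone-collapsing ligand, was at 18.9, 17.6 and 14.7 CPM in Dek shRNA wells, against 19.5, 19.2 and 22.0 CPM in scrambled wells and 44.5, 41.8 and 39.3 CPM in empty vector wells. Both hairpin groups were low. Sema3a was below empty vector in Dek shRNA wells at −1.3 (SE 0.095, adjusted p = 1.1e-07) and in scrambled wells at −1.05 (SE 0.077, adjusted p = 4.5e-07), and Dek shRNA against scrambled did not pass (−0.26, adjusted p = 0.058; −0.33, adjusted p = 0.026, without Dek shRNA replicate 1). Sema3f, a Nrp2 ligand, had the same layout at a lower level, with 3.46 ± 0.922 CPM in Dek shRNA wells, 3.54 ± 0.630 CPM in scrambled wells and 5.61 ± 0.403 CPM in empty vector wells. Its log2FC was −0.69 (adjusted p = 0.007) for Dek shRNA and −0.67 (adjusted p = 0.006) for scrambled, each against empty vector, and −0.039 (adjusted p = 0.90) for Dek shRNA against scrambled.

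Sema3c, the most abundant class 3 ligand, averaged 41.2 ± 6.12 CPM in Dek shRNA wells, 35.2 ± 1.54 CPM in scrambled wells and 48.1 ± 1.66 CPM in empty vector wells. Against scrambled it did not pass (0.21, adjusted p = 0.089), but it was called higher without Dek shRNA replicate 3 (0.32, adjusted p = 0.0068) or with the GC and length correction (0.38, adjusted p = 0.0018). Against empty vector it was called at −0.22 (adjusted p = 0.049), a call lost without any 1 of Dek shRNA replicates 2 and 3 or the 3 empty vector wells (−0.27 to −0.13), and the value was 0.17 (adjusted p = 0.064) with the GC and length correction. Sema3d was scarce, at 1.3, 0.762 and 0.850 CPM in Dek shRNA wells, against 2.21, 1.31 and 1.95 CPM in scrambled wells and 2.16, 3.02 and 3.16 CPM in empty vector wells. Dek shRNA wells were low, although the highest of them lay just under the lowest scrambled well. It fell against both controls, with a log2FC of −1.53 (SE 0.27, adjusted p = 0.0003) against empty vector and −0.94 (SE 0.31, adjusted p = 0.024) against scrambled. The call against scrambled was lost without Dek shRNA replicate 2 (−0.79) or 3 (−0.85), or scrambled replicate 1 (−0.78) or 3 (−0.89), with adjusted p from 0.072 to 0.094, and also with DESeq2 (−0.92, adjusted p = 0.071) or the GC and length correction (−0.72, adjusted p = 0.063). Sema3b, another scarce Nrp2 ligand, was at 2.04, 2.23 and 2.5 CPM in Dek shRNA wells, against 1.3, 1.13 and 1.24 CPM in scrambled wells and 1.55, 1.84 and 1.58 CPM in empty vector wells. It was above both controls in every Dek shRNA well and passed against scrambled (0.86, SE 0.24, adjusted p = 0.009) but not against empty vector (0.45, adjusted p = 0.085).

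Class 4 was the ligand class with the most members that fell against scrambled. Of its 6 genes, 5 fell and 0 rose against scrambled, with a median log2FC of −0.40, and 4 fell and 1 rose against empty vector, with a median of −0.59. Sema4f, which binds the postsynaptic protein PSD-95, was at 24.3, 25.0 and 25.2 CPM in Dek shRNA wells, against 49.3, 49.1 and 47.3 CPM in scrambled wells and 62.5, 59.7 and 63.0 CPM in empty vector wells. Its groups did not overlap, and the log2FC was −0.98 (SE 0.069, adjusted p = 2.9e-07) against scrambled and −1.31 (SE 0.066, adjusted p = 3.9e-09) against empty vector. Sema4d, the ligand of Plxnb1, was at 9.58, 8.99 and 9.73 CPM in Dek shRNA wells, against 16.5, 19.4 and 19.2 CPM in scrambled wells and 23.6, 19.9 and 17.1 CPM in empty vector wells. The controls overlapped and the Dek shRNA wells lay well below them, at −0.97 (SE 0.11, adjusted p = 1.2e-05) against scrambled and −1.10 (SE 0.12, adjusted p = 5.4e-06) against empty vector. Sema4d is also known as an oligodendrocyte gene. The 6 oligodendrocyte markers summed to 82.9 to 90.0 CPM in Dek shRNA wells and 30.9 to 41.6 CPM in scrambled wells. Of the 5 tested, 4 were called higher and 1 lower. Cnp led the sum, at 45.8 to 58.5 CPM in Dek shRNA wells and 17.2 to 24.9 CPM in scrambled wells. Mog was lower in Dek shRNA wells, at 0.556 to 0.926 against 1.3 to 1.99 CPM. The part of these markers in the Sema4d result was not tested.

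Sema4a averaged 19.7 ± 1.81 CPM in Dek shRNA wells, 26.6 ± 2.07 CPM in scrambled wells and 32.3 ± 0.779 CPM in empty vector wells, and fell at a log2FC of −0.45 (adjusted p = 0.0018) against scrambled and −0.71 (adjusted p = 9.3e-06) against empty vector. Sema4c, a Plxnb2 ligand that shares 334 exonic bases with the opposite-strand gene D430040D24Rik, averaged 15.9 ± 1.35 CPM in Dek shRNA wells, 20 ± 0.252 CPM in scrambled wells and 22.1 ± 2.07 CPM in empty vector wells, with a log2FC of −0.34 (adjusted p = 0.0082) and −0.47 (adjusted p = 0.0011). Both genes fell against both controls. Sema4g, the most abundant class 4 ligand, averaged 85.4 ± 2.48 CPM in Dek shRNA wells, 103 ± 4.19 CPM in scrambled wells and 87.7 ± 3.97 CPM in empty vector wells. It was high in scrambled wells, so that it fell against scrambled (−0.29, adjusted p = 0.0011) and did not pass against empty vector (−0.035, adjusted p = 0.61). Sema4b was the class 4 gene that rose against empty vector (0.46, adjusted p = 0.0011), at 22.9 ± 1.92 CPM in Dek shRNA wells, 21.0 ± 3.15 CPM in scrambled wells and 16.7 ± 1.28 CPM in empty vector wells, and it did not pass against scrambled (0.12, adjusted p = 0.42).

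The 2 class 5 ligands, transmembrane proteins with thrombospondin repeats, moved in opposite directions. Sema5b was at 17.1, 24.6 and 24.1 CPM in Dek shRNA wells, against 8.51, 12.9 and 13.6 CPM in scrambled wells and 7.33, 6.22 and 5.84 CPM in empty vector wells. The groups did not overlap, and in both hairpin groups replicate 1 was the lowest well. The log2FC was 0.90 (SE 0.20, adjusted p = 0.0051) against scrambled, 1.77 (SE 0.15, adjusted p = 7.4e-07) against empty vector and 0.85 (SE 0.18, adjusted p = 0.0023) for scrambled against empty vector, which made Sema5b the ligand with the highest log2FC in all 3. Sema5a was at 17.4, 16.4 and 17.3 CPM in Dek shRNA wells, against 22.8, 24.5 and 27.0 CPM in scrambled wells and 27.7, 27.9 and 21.3 CPM in empty vector wells. It fell at a log2FC of −0.55 (SE 0.091, adjusted p = 0.00028) and −0.59 (SE 0.11, adjusted p = 0.00036), but with the GC and length correction these values were −0.3 (adjusted p = 0.01) and 0.022 (adjusted p = 0.85).

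Class 6 was divided. Sema6a, a ligand of Plxna2 and Plxna4, was at 59.2, 62.1 and 64.5 CPM in Dek shRNA wells, against 106, 99.4 and 105 CPM in scrambled wells and 109, 110.4 and 109 CPM in empty vector wells. The Dek shRNA wells lay far below both controls, at −0.75 (SE 0.060, adjusted p = 7.9e-07) and −0.82 (SE 0.058, adjusted p = 7.7e-08). Sema6b, a Plxna4 ligand, was at 98.4, 119 and 110.4 CPM in Dek shRNA wells, against 74.3, 80.1 and 84.7 CPM in scrambled wells and 83.2, 83.5 and 80.3 CPM in empty vector wells. Sema6b rose against both, by 0.44 (SE 0.079, adjusted p = 0.00054) and 0.41 (SE 0.071, adjusted p = 0.00022). The value against empty vector was 0.23 with the GC and length correction. Sema6c, at 43.8 ± 3.81 CPM in Dek shRNA wells, 41.1 ± 2.10 CPM in scrambled wells and 41.6 ± 3.77 CPM in empty vector wells, passed in neither comparison. Sema6d, a Plxna1 ligand, was at 62.4 ± 7.26, 63.3 ± 5.30 and 55.1 ± 2.05 CPM and did not pass either, but against empty vector it was called higher with the GC and length correction (0.5, adjusted p = 0.00011) or without Dek shRNA replicate 1 (0.25, adjusted p = 0.005).

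Sema7a, the lipid-anchored semaphorin and the highest ligand of the empty vector wells, was at 80.8, 75.5 and 76.0 CPM in Dek shRNA wells, against 62.9, 66.7 and 62.4 CPM in scrambled wells and 109, 118 and 125 CPM in empty vector wells. Dek shRNA wells lay between the controls without overlap, so its direction changed with the control. It was higher than scrambled by 0.26 (SE 0.059, adjusted p = 0.0027) and lower than empty vector at −0.60 (SE 0.062, adjusted p = 2.4e-06), with scrambled below empty vector at −0.88 (SE 0.057, adjusted p = 1.8e-07).

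**Figure D4:**
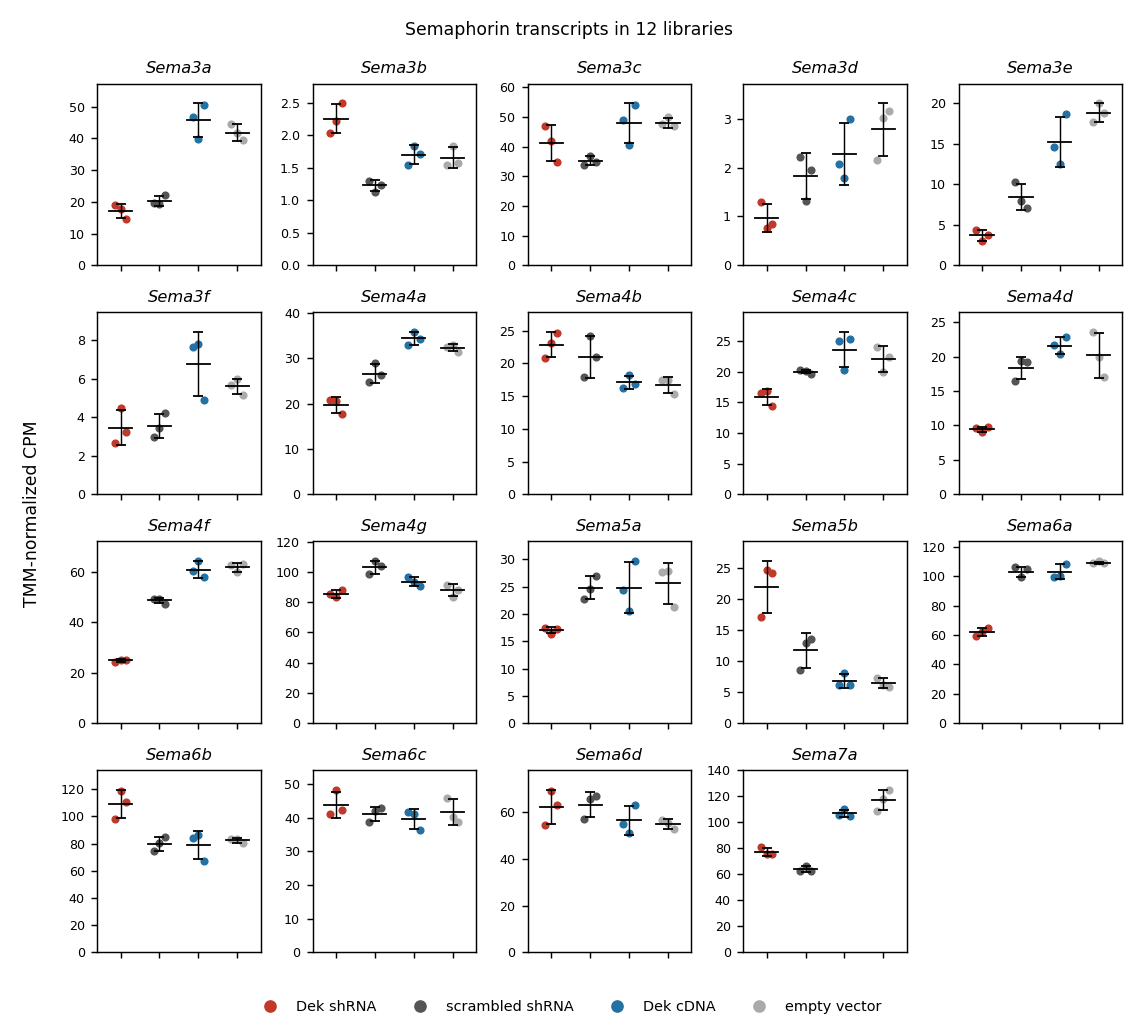
CPM of the 19 semaphorins tested in each of the 12 libraries (points), with mean and SD of 3 libraries per group. Sema4d, Sema4f and Sema6a are low in Dek shRNA wells alone or most of all, Sema3a and Sema7a are low in both hairpin groups, and Sema5b is high in both.

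The 6 tested members with AAGAGGA in their 3′ UTR were Nrp2, Plxna2, Plxna4, Sema3e, Sema4d and Sema6a. Against scrambled 4 of them fell (Nrp2, Sema3e, Sema4d and Sema6a) and Plxna4 rose, with a median log2FC of −0.74, and against empty vector all 6 were called lower, also with a median of −0.74, although Plxna2 and Plxna4 were higher there with the GC and length correction. Over all genes against scrambled, the median was −0.19 for the 2163 with AAGAGGA and 0.025 for the 11318 without it. Against empty vector these medians were −0.29 and 0.058. For scrambled against empty vector they were −0.074 and 0.021. There, of 2158 genes with AAGAGGA 344 were called higher and 679 lower, and 3 of the 6 members were called lower. Of the genes with AAGAGGA, 950 of 2163 were called lower and 376 higher against scrambled, where 28.5% and 26.2% of all genes were. Against empty vector 1122 of 2168 were called lower and 496 higher, beside 33.5% and 34.0% of all genes. The letters occur in 14.9% of all 3′ UTRs. The other heptamer, AGGATCT, is in 5 members (Sema3a, Sema3b, Sema4f, Sema5a and Sema6d), of which Sema4f and Sema5a fell and Sema3b rose against scrambled. Over all genes, 384 of the 1463 with AGGATCT were called higher and 465 lower against scrambled. The median with and without AGGATCT was −0.027 and −0.0021 against scrambled, and −0.14 and 0.028 against empty vector. For scrambled against empty vector it was −0.1 and 0.018. In all of these medians, genes with and without a heptamer were not matched for 3′ UTR length. Sema3d, Sema4a, Sema4c and Sema4g fell against scrambled and hold neither heptamer.

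Summed over all members, the ligands were at 641 ± 20.8 CPM in Dek shRNA wells, 696 ± 24.4 CPM in scrambled wells, 787 ± 12 CPM in Dek cDNA wells and 798 ± 13.1 CPM in empty vector wells. The receptors summed to 1258 ± 56.5, 928 ± 60.2, 1240.4 ± 35.8 and 1253 ± 70.0 CPM in the same order. The ligand sum was thus low in both hairpin groups and the receptor sum was low in scrambled wells alone. Per length, the receptor sum divided by the ligand sum was 1.17, 1.18 and 1.15 in Dek shRNA wells, 0.771, 0.787 and 0.805 in scrambled wells, 0.909, 0.902 and 0.954 in Dek cDNA wells and 0.961, 0.903 and 0.891 in empty vector wells. Dek shRNA wells had the highest ratio and scrambled wells the lowest. Without Plxnd1 the ratio was 0.880 ± 0.0237 in Dek shRNA wells and 0.722 ± 0.0166 in scrambled wells, 0.746 ± 0.0314 in Dek cDNA wells and 0.741 ± 0.0300 in empty vector wells, so the Dek shRNA wells were still highest and the scrambled wells were close to the others. These sums are given as a description, without a test.

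**Figure D5:**
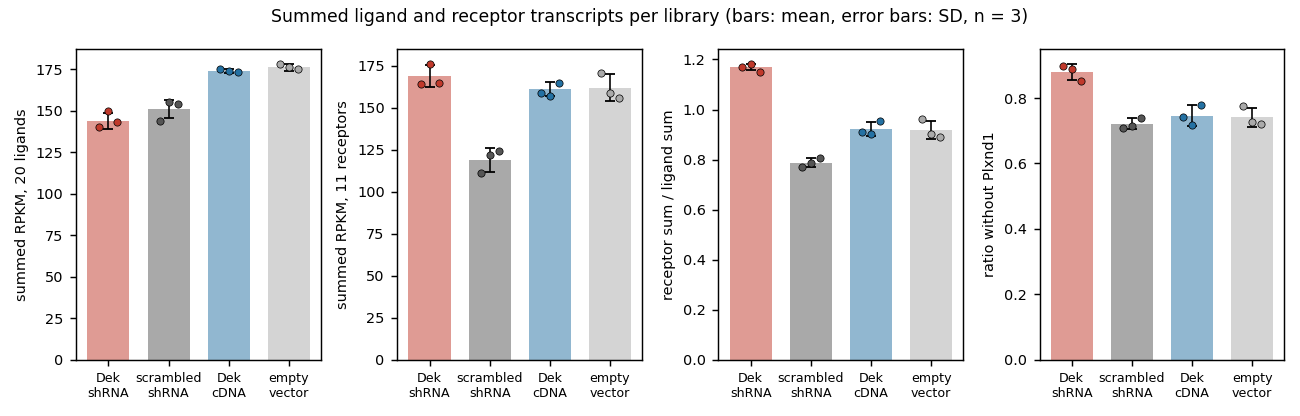
Summed RPKM of 20 ligands and of 11 receptors, their ratio, and the ratio without Plxnd1; bars are means, error bars SD and points the 3 libraries of each group. The ratio averages 1.17 in Dek shRNA wells, 0.788 in scrambled wells, 0.922 in Dek cDNA wells and 0.919 in empty vector wells.

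No semaphorin, plexin or neuropilin was called when Dek was raised. Of 14089 genes tested between Dek cDNA and empty vector wells, 1 (0.0071%) was called, Dek itself. None of the 29 members passed by edgeR, by DESeq2 or by limma-voom, and 3 had an unadjusted p below 0.05 in edgeR, against 6.6% of all genes. These were Plxnc1 (0.21, 95% interval 0.048 to 0.37), Plxna4 (−0.16, −0.30 to −0.0083) and Sema3e (−0.30, −0.57 to −0.033), with adjusted p of 0.69 to 0.74. Plxnd1, at 205 to 222 CPM in Dek cDNA wells and 208 to 224 CPM in empty vector wells, had a log2FC of −0.013 with an interval of −0.13 to 0.11. For Nrp1 the interval was −0.24 to 0.054, for Nrp2 −0.11 to 0.14, for Sema4f −0.16 to 0.12, for Sema6a −0.21 to 0.034 and for Sema4d −0.14 to 0.33, so changes of the size seen with Dek shRNA lay outside them. For scarce members the intervals were wider, −0.44 to 0.52 for Sema3b and −0.78 to 0.21 for Sema3d.

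The difference between the responses (Dek shRNA against scrambled, minus Dek cDNA against empty vector) was tested in 1 edgeR fit of the 12 libraries, in which 43.0% of 14604 genes were called, 20.4% higher and 22.7% lower. Of the members 8 were called higher and 10 lower. The largest were Plxnd1 at 2.09 (SE 0.099, adjusted p = 3.2e-11), Sema4d at −1.06 (SE 0.16, adjusted p = 3.1e-05) and Sema4f at −0.94 (SE 0.087, adjusted p = 1.1e-07). Nrp1 was at 0.89 and Nrp2 at −0.73. Plxna1, Plxna2, Plxna3, Plxnb1 and Plxnc1 did not pass, at 0.22, 0.21, 0.12, 0.39 and −0.0068, although Plxna1, Plxna2 and Plxnb1 were called higher with the GC and length correction (0.23, 0.35 and 0.4). Plxna2 was also called without Dek cDNA replicate 3 (0.29), and Plxnb1 without Dek shRNA replicate 1, scrambled replicate 2 or 3, or empty vector replicate 3 (0.45 to 0.47).

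Other genes of the pathway were taken from a list of 64 co-receptors, GTPases, their regulators and cytoskeletal effectors, of which 60 were tested in each 2-group comparison. Against scrambled, 16 rose and 21 fell in Dek shRNA wells with a median of −0.075, or 61.7% beside 54.7% of all genes. Against empty vector 19 rose and 28 fell, or 78.3% beside 67.4%, and 0 were called in Dek cDNA wells. The genes named here are among those with the smallest adjusted p in each direction, not all of them. Among co-receptors, Itgb1, the beta-1 integrin that binds Sema7a, rose by 0.92 (SE 0.064, adjusted p = 2.5e-07) against scrambled and 1.09 (SE 0.068, adjusted p = 2.6e-08) against empty vector. Ptk7, a Wnt and plexin co-receptor, rose by 0.95 in both comparisons. Other co-receptors of the list were called in either direction or not called against scrambled, so the named ones do not stand for the group. Farp2, the exchange factor that starts plexin-A1 signalling, rose by 1.56 and 1.69, and the GTPase gene Rhoa by 0.40 and 0.62. Rap1b, a substrate of the plexin GAP domain, rose by 0.87 against scrambled.

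Gsk3a, a kinase that phosphorylates collapsin response mediator proteins, fell at a log2FC of −2.12 (SE 0.054, adjusted p = 7.6e-10) against scrambled and −2.05 (SE 0.056, adjusted p = 7.3e-11) against empty vector. Its paralogue Gsk3b fell at a log2FC of −0.77 and −1.17. Dpysl3, one of those mediator proteins, fell at a log2FC of −0.61 and −1.05, and Dpysl2, the best known of them, at −0.81 against scrambled, while Dpysl4 rose by 0.56 against empty vector. Rasa1, a GTPase-activating protein that acts on Ras, fell at a log2FC of −1.09 against scrambled and −1.89 against empty vector. Of these, Gsk3b, Dpysl3 and Rasa1 were also lower in scrambled than in empty vector wells, at −0.41, −0.46 and −0.82, whereas Dpysl2 was higher there at 0.19.

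Cell type markers differed between the hairpin and hSyn1 groups. The 6 GABAergic markers summed to 2372 to 2753 CPM in Dek shRNA wells, 2456 to 2599 CPM in scrambled wells, 1811 to 1874 CPM in Dek cDNA wells and 1982 to 2038 CPM in empty vector wells, and the 6 excitatory markers, led by Slc17a7, to 314 to 343, 296 to 343, 502 to 539 and 487 to 519 CPM in the same order. Sema3a, Sema3f, Sema7a and Sema3e, lower in both hairpin groups, moved with the excitatory markers, and Sema5b, higher in both, with the GABAergic ones. Between Dek shRNA and scrambled wells both sums overlapped, but single markers within them did not. Among the GABAergic markers Lhx6 was at 42.4 to 47.4 CPM in Dek shRNA wells and 135 to 140.2 CPM in scrambled wells, and Dlx2 at 41.9 to 53.5 and 13.2 to 14.7 CPM. Among the excitatory markers Neurod6 was at 46.4 to 48.5 CPM in Dek shRNA wells and 80.5 to 84.0 CPM in scrambled wells, and Slc17a6 at 61.2 to 70.0 and 41.8 to 42.5 CPM. Lhx6, at 94.3 to 107 CPM in empty vector wells, thus did not follow the GABAergic sum in Dek shRNA wells. Their part in these results was not tested.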

How the data were processed

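The authors quantified single-well RNA (TruSeq libraries from 200 ng RNA, NextSeq) against mm10 with Salmon, per the labels. They deposited estimated counts per gene for 12 libraries in 1 table of 24100 genes. The paper's methods instead name trimming by fastp and alignment to mm10 with STAR, and these accounts were not reconciled here. Whether counting used strand is not given in the sources used here. Here the estimated counts were rounded to whole numbers, as 38.6% were not whole, genes were kept by filterByExpr and scaled by TMM, and groups were compared by the robust quasi-likelihood test of edgeR 4.0.16 in R 4.3.3, with Benjamini-Hochberg adjustment over all genes tested and a threshold of 0.05. The study used DESeq2, which is an alternative here (1.42.0), as are limma-voom (limma 3.58.1), other scalings and filters (5 CPM in 3 libraries, or none), 1 fit of 12 libraries, a replicate block, a correction for GC content and length, and leaving out each library. The script was tested on simulated data. Lengths, 3′ UTRs and overlaps came from GENCODE. All members may be named; of the pathway list at most 6 per direction and comparison were, by smallest adjusted p. The members, gene lists, marker lists and heptamers were chosen with earlier results of these data known. Intervals are 95% intervals of the fit, and the depth of 15679479 to 18933293 counts per library limits genes with few counts. The matches to the scrambled hairpin are not reported here.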

Additional observations from a re-analysis of the deposited data

Results flagged for a closer look

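The responses to Dek shRNA (against scrambled) and to Dek cDNA (against empty vector) differed for 18 members in a test of the difference itself, with 43.0% of all genes called in that test, and no member was called in the Dek cDNA response. Higher differences (log2 scale) were found for the receptors Plxnd1 (2.09), Nrp1 (0.89), Plxnb2 (0.37) and Plxna4 (0.35), and for the ligands Sema3b (0.84), Sema5b (0.84), Sema6b (0.52) and Sema7a (0.41). Lower differences were found for the receptor Nrp2 (−0.73) and the ligands Sema4d (−1.06), Sema4f (−0.94), Sema3e (−0.90), Sema6a (−0.65), Sema4a (−0.53), Sema5a (−0.50), Sema4c (−0.42), Sema3a (−0.37) and Sema4g (−0.36). For Plxnd1, Plxna4, Nrp1, Sema3a, Sema3e, Sema4a, Sema4f, Sema4g, Sema5b and Sema7a, the scrambled and empty vector controls themselves differed in the test between them. For Plxna4 that difference was not called with the GC and length correction (−0.046, adjusted p = 0.42). Both arms were run with different promoters and cassettes, which cannot be told apart from the direction of the Dek change.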

How the results depend on the processing

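Each comparison of groups was repeated under 16 alternatives, and the difference of responses under 21. No member passed between Dek cDNA and empty vector under any of them. Of the called members, 15 of 20 for Dek shRNA against scrambled, 17 of 22 for Dek shRNA against empty vector, 12 of 17 for scrambled against empty vector and 13 of 18 for the difference passed under every alternative. Leaving out 1 library gave 7 to 10 members higher and 9 to 11 lower for Dek shRNA against scrambled, 6 to 8 and 14 to 16 for Dek shRNA against empty vector, 2 to 5 and 13 to 14 for scrambled against empty vector, and 6 to 9 and 7 to 10 for the difference. Members higher in scrambled than in empty vector wells numbered 2 with the replicate block and 7 with the GC and length correction, and members higher in Dek shRNA than in empty vector wells numbered 11 with that correction, with or without the block. The same correction turned several directions. For scrambled against empty vector Plxna2 was then at 0.015, Sema5a at 0.32 and Sema6a at 0.14. For Dek shRNA against empty vector Plxna1 was at 0.030 (0.029 with the block), Plxna2 at 0.33, Plxna4 at 0.32, Sema3c at 0.17 and Sema5a at 0.022 (0.027 with the block). Without a change of direction, it gave 0.17 for Sema7a and 0.37 for Plxna4 against scrambled, and −0.45 for Sema6a, −0.82 for Sema3a, −0.99 for Sema3d, 0.23 for Sema6b and 0.8 for Plxnb1 in Dek shRNA against empty vector wells. The cause was not tested. In the difference of responses, Sema3a, Sema3b, Sema4c, Sema5a and Sema5b lost their call without at least 1 library, at −0.40 to −0.28, 0.76 to 0.85, −0.38 to −0.35, −0.51 to −0.35 and 0.73 to 0.77. Sema3a passed in 7 and Sema5a in 11 of the 21 alternatives, and Sema3b in 9 of 20. With DESeq2, Sema3a was at −0.37 (adjusted p = 0.051) and Sema3b at 0.85 (adjusted p = 0.1).

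Replicate numbers are shared between groups, and same-numbered wells of Dek shRNA and scrambled correlated at 0.304, 0.133 and 0.0697 in their deviations from the group means. The last is under 0.1, the correlations were below 0 in the 3 other pairs of groups, and not every well correlated best with its own number, so the numbers were not taken to pair the wells. With the replicate block, 13 members rose and 11 fell for Dek shRNA against scrambled, beside 4208 and 4412 of all genes. Those called with the block and not without it were Plxna3 (0.17, adjusted p = 0.029), Plxnc1 (0.19, adjusted p = 0.033), Sema3c (0.21, adjusted p = 0.042) and Sema3a (−0.26, adjusted p = 0.042) by the edgeR test.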
